A study of Saccharomyces cerevisiae with 5 samples.

Results

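Transcripts of 10 genes of thiol redox control and superoxide removal were followed in budding yeast, Saccharomyces cerevisiae, that was recovering from high hydrostatic pressure. They encode the thioredoxins Trx1 and Trx2 and their reductase Trr1, the peroxiredoxins Tsa1, Ahp1 and Prx1, the glutaredoxins Grx1 and Grx2, the superoxide dismutase Sod1 and its copper chaperone Ccs1. The genes were chosen by name, with earlier results of these data known, and each was matched by its symbol to 1 feature of the array. All 10 had values in 2 or more hybridizations, among the 5196 named genes of the array. The tested RNA came from cells that had spent 16 h at 30 MPa and 25 °C and then 2 h of growth at 0.1 MPa; it was labelled with Cy5. The other RNA, labelled with Cy3, came from cells given the same pressure treatment and collected at decompression (0 h). No culture kept at atmospheric pressure throughout is among the samples, and the strain is not given in the labels, so both sides of each ratio carry the pressure treatment. The polyA RNA of 3 pairs of independent samples was hybridized to 2-colour spotted arrays.

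Each value is a log2 ratio, so that 1 is a 2-fold difference. The labels do not name the numerator. Recovery over decompressed was taken as the likely direction, because recovery is the first channel of the labels; with the opposite numerator every "higher" and "lower" would change places. Cy5 marks recovery on every array, so a dye effect on a gene and its change cannot be told apart. The first and second arrays were each read with strong and with weak laser power (high and low power scans), and the third in a single scan. Between 33.0% and 79.0% of the 6336 features carried a value in a scan, hybridization 3 having the fewest. The RNA is of whole cultures, so fewer cells with a transcript and less of it per cell cannot be told apart. Signal intensities were not analysed here, so the precision of each value is known only from the 3 hybridizations.

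Thioredoxins are small proteins that reduce disulphide bonds in other proteins and are reduced again by thioredoxin reductase with electrons from NADPH. Peroxiredoxins remove hydrogen peroxide through a reactive cysteine and mostly draw their electrons from thioredoxin. Glutaredoxins do similar work with glutathione. Sod1 turns superoxide into peroxide and oxygen, and Ccs1 hands it the copper ion it needs. In yeast the transcription factors Yap1 and Skn7 raise many of these genes under peroxide.

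The 10 genes did not move as a block. After 2 h of recovery TRX1, CCS1 and PRX1 rose, AHP1 and TSA1 fell, and TRX2, TRR1, GRX1, GRX2 and SOD1 did not pass the test. The test was limma's, of each mean ratio against 0, with Benjamini-Hochberg adjustment over 4368 genes and unnamed features with values in at least 2 hybridizations, at an adjusted p of 0.05. In that fit 27.4% of everything tested was called, 13.4% higher and 14.0% lower, so that 5 calls among 10 genes, 3 higher and 2 lower, stand beside that background. Because the genes were chosen with earlier results known, the count is a description and not a test of the list. The median log2 ratio of the 10 was 0.32, against -0.01 over all tested. Without hybridization 1 that median was 0.14. Without hybridization 2 or 3 TRX1 could not enter, and the median of the remaining 9 was -0.02 and 0.50. The median of all 10 turned sign with the trend on coding length removed, at -0.09, and with length and position both corrected, at -0.19. Standard errors in that fit were almost fully pooled over genes, near 0.25 for genes with 3 values and 0.30 for genes with 2. For each call among the 10 genes that had 3 values, the adjusted p of a second fit is therefore given. In the wider network it is given for some calls only. The second fit held the 1891 genes and unnamed features with all 3 values. Its background was 27.2%, and a gene's own spread counts for more there.

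**Figure D1:**
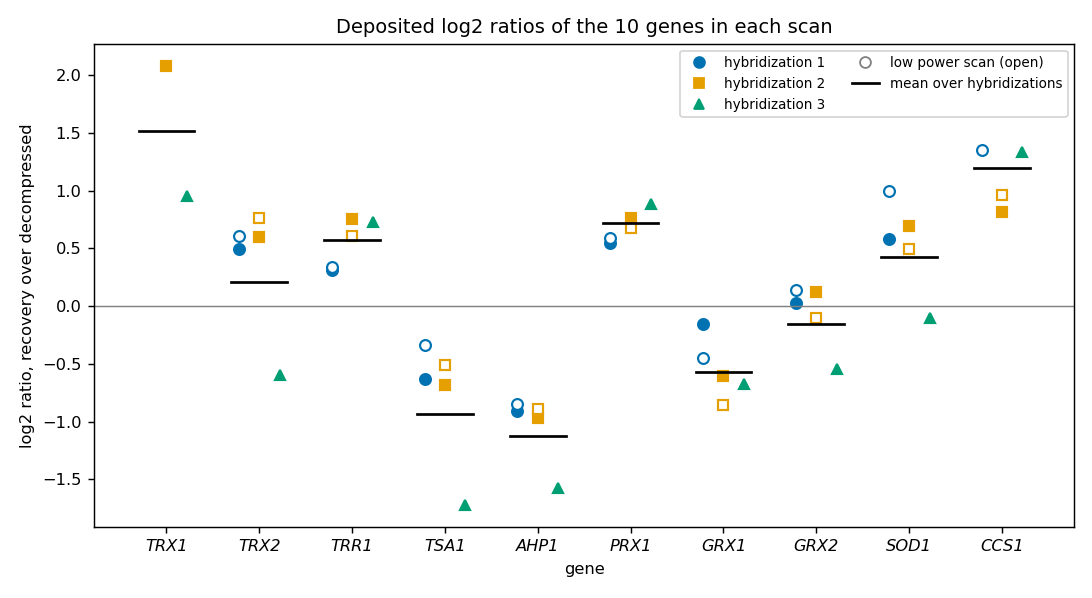
Deposited log2 ratios (y axis, recovery over decompressed) of the 10 genes (x axis) in each scan; colour and shape mark the hybridization, open symbols the low power scans, and black lines the mean over hybridizations. TRX1 and CCS1 lie above 0 and AHP1 and TSA1 below 0 in every scan that measured them, while TRX2, SOD1 and GRX2 lie below 0 in hybridization 3.

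TRX1 (YLR043C), a cytosolic thioredoxin, had the highest mean of the 10 genes. Its log2 ratio was 2.08 in hybridization 2, from the high power scan alone, and 0.95 in hybridization 3; hybridization 1 gave no value. Both values lie above 0 but are more than 1 log2 unit apart. The mean was 1.52 ± 0.80 (SD, n = 2), or 2.86-fold higher in recovery (limma adjusted p = 1.59e-05). TRX1 could not enter the fit of genes with 3 values, and its small p rests on the mean and the pooled variance rather than on its own spread. In hybridization 2 it stood at or above 99.6% of the genes measured, and in hybridization 3 at or above 88.4%.

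TRX2 (YGR209C), the second cytosolic thioredoxin and a close relative of TRX1, did not pass the test. It stood at 0.55 in hybridization 1, 0.68 in hybridization 2 and -0.60 in hybridization 3. The third value opposes the first and second. The mean of 0.21 ± 0.70 (SD, n = 3) lies well within the spread of the 3 values (limma adjusted p = 0.581, and 0.625 with an interval at 95% of -0.39 to 0.81 in the fit of genes with 3 values). Without hybridization 3 the mean was 0.61 (adjusted p = 0.0915). In the hybridizations that measured both, TRX1 exceeded TRX2 by 1.40 and 1.55, a mean difference of 1.48 ± 0.11 (SD, n = 2). An exact sign-flip test of 2 differences cannot go below p = 0.5, which was the value found. Related transcripts can share signal on an array of this kind, and that was not tested here.

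TRR1 (YDR353W), the cytosolic thioredoxin reductase, stood at 0.32, 0.68 and 0.72 in hybridizations 1, 2 and 3. All values lie above 0, yet the mean of 0.58 ± 0.22 (SD, n = 3) missed the threshold (limma adjusted p = 0.0683). With ratios centred within runs of consecutive feature numbers, a stand-in for position on the array, TRR1 was at 0.63 and passed (adjusted p = 0.0217). Against TRX2 the reductase differed by -0.23, -0.00071 and 1.32, with no common sign.

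Among the peroxiredoxins of the list, the mitochondrial member was higher in recovery and the cytosolic ones were lower. AHP1 (YLR109W), a peroxiredoxin that prefers organic peroxides, fell. Its log2 ratios were -0.87 in hybridization 1, -0.93 in hybridization 2 and -1.57 in hybridization 3. All 3 lie below 0, and the high and low power scans of hybridizations 1 and 2 fell between -0.97 and -0.84. The mean was -1.12 ± 0.39 (SD, n = 3), a 2.18-fold lower level in recovery (limma adjusted p = 0.000108, and 0.00501 in the fit of genes with 3 values). AHP1 kept its call under each of the 14 alternative settings, with means from -1.42 to -0.84.

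TSA1 (YML028W), the most abundant cytosolic peroxiredoxin and also a chaperone, fell as well. It stood at -0.48, -0.60 and -1.72 in hybridizations 1, 2 and 3. Hybridization 3 lies far below the others, and 25.1%, 19.2% and 2.58% of the genes measured in hybridizations 1, 2 and 3 were at or below it. The mean was -0.93 ± 0.68 (SD, n = 3), or 1.91-fold lower (limma adjusted p = 0.00167, and 0.0233 in the fit of genes with 3 values). This call rests on hybridization 3: without it the mean was -0.54 (adjusted p = 0.138). With low power scans alone in hybridizations 1 and 2 it was -0.85 (adjusted p = 0.0657).

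PRX1 (YBL064C), the peroxiredoxin of mitochondria, rose. Its values of 0.57, 0.72 and 0.88 in hybridizations 1, 2 and 3 are close together and all above 0. The mean was 0.72 ± 0.15 (SD, n = 3), or 1.65-fold higher (limma adjusted p = 0.0183, and 0.0359 in the fit of genes with 3 values). The call is a narrow one. Without hybridization 1, 2 or 3 the means were 0.80, 0.73 and 0.64, and each missed the threshold (adjusted p = 0.13, 0.121 and 0.0768). Those fits called 262 of 2004, 340 of 1933 and 1052 of 4213 tested, against 1198 of 4368 with all hybridizations. PRX1 was at 0.55 after a correction for coding length and at 0.40 after centring by position, and neither passed (adjusted p = 0.0717 and 0.092). With both corrected it was 0.22 (adjusted p = 0.311).

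The gap between the mitochondrial gene and the cytosolic ones was seen in every hybridization. TSA1 minus PRX1 was -1.05, -1.31 and -2.60, a mean of -1.66 ± 0.83 (SD, n = 3). AHP1 minus PRX1 was -1.44, -1.65 and -2.45, a mean of -1.85 ± 0.53 (SD, n = 3). After centring by position these mean gaps were smaller, at -1.27 for TSA1 minus PRX1 and -1.24 for AHP1 minus PRX1. TSA1 and AHP1 differed from each other by 0.39, 0.33 and -0.15, with no common sign. An exact sign-flip test over 3 hybridizations, two-sided, cannot go below p = 0.25, which both differences from PRX1 reached (0.5 after adjustment over the 8 pairs compared), so this test cannot reach 0.05 for a pair. The remaining peroxiredoxin genes of yeast had values in hybridizations 1 and 2 only. TSA2, a close relative of TSA1, stood at -0.82 and -0.78, and DOT5, a nuclear thiol peroxidase, at -1.21 and -0.51. Both fell, to means of -0.80 and -0.86 (limma adjusted p = 0.035 and 0.0222). With the 5 scans fitted and the hybridization as a block neither passed (adjusted p = 0.0926 and 0.0681). TSA2 also missed the threshold with low power scans alone, at -0.63 (adjusted p = 0.155), and after position centring, at -0.61 (adjusted p = 0.0549). TSA1 and TSA2 may share signal on the array.

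**Figure D2:**
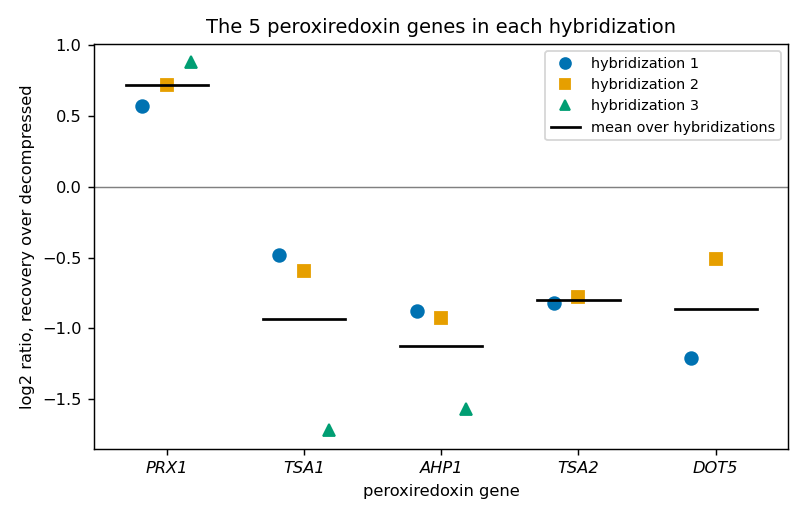
Log2 ratios (y axis, recovery over decompressed) of the 5 peroxiredoxin genes (x axis) in each hybridization, with black lines at the means. PRX1 lies between 0.57 and 0.88, while TSA1, AHP1, TSA2 and DOT5 lie below 0 wherever they were measured.

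The glutaredoxin genes did not pass the test. GRX1 (YCL035C) stood at -0.30 in hybridization 1, -0.73 in hybridization 2 and -0.67 in hybridization 3. All values lie below 0, with a mean of -0.57 ± 0.23 (SD, n = 3, limma adjusted p = 0.0725). After position centring it was -0.25 (adjusted p = 0.294), and corrected for coding length it was -1.03 and passed (adjusted p = 0.00108). GRX2 (YDR513W), whose product is found in the cytosol and in mitochondria, stood at 0.08, 0.0064 and -0.55. It was near 0 in hybridizations 1 and 2 and lower in hybridization 3, with a mean of -0.15 ± 0.34 (SD, n = 3, limma adjusted p = 0.698). GRX1 was below GRX2 in all 3 hybridizations, by a mean of -0.42 ± 0.30 (SD, n = 3; exact sign-flip p = 0.25, the smallest that 3 allow). After centring by position the difference was -0.04.

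CCS1 (YMR038C), the copper chaperone, rose. Its log2 ratio was 1.35 in hybridization 1, from the low power scan alone, 0.89 in hybridization 2 and 1.34 in hybridization 3. The 3 values stand at or above 97.1%, 90.1% and 95.0% of the genes measured in their hybridization. The mean was 1.19 ± 0.26 (SD, n = 3), or 2.29-fold higher in recovery (limma adjusted p = 3.43e-05, and 0.003 in the fit of genes with 3 values). CCS1 passed without each of the 3 hybridizations. It lies in a run of features whose medians were -0.13, 0.58 and 0.95 in hybridizations 1, 2 and 3. With position centred its mean was 0.73 (adjusted p = 0.0378), and with coding length corrected as well it was 0.53 and missed the threshold (adjusted p = 0.123).

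SOD1 (YJR104C), the enzyme that Ccs1 loads with copper, stood at 0.79, 0.59 and -0.10. Hybridizations 1 and 2 lie above 0 and hybridization 3 just below it. The mean of 0.43 ± 0.47 (SD, n = 3) did not pass (limma adjusted p = 0.203, and 0.239 with an interval at 95% of -0.12 to 0.97 in the fit of genes with 3 values). Without hybridization 1, 2 or 3 it was 0.25, 0.34 and 0.69 (adjusted p = 0.722, 0.521 and 0.0589), and corrected for coding length it was 0.09 (adjusted p = 0.828). CCS1 exceeded SOD1 by 0.57, 0.29 and 1.44 in the 3 hybridizations, a mean of 0.77 ± 0.60 (SD, n = 3; exact sign-flip p = 0.25, the smallest that 3 allow).

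From the highest to the lowest mean the genes ran TRX1, CCS1, PRX1, TRR1, SOD1, TRX2, GRX2, GRX1, TSA1 and AHP1. Most neighbours in that order differ by less than the larger of their SDs. The exceptions are CCS1 against PRX1 and GRX2 against GRX1. Of the 9 genes with 3 values, TRR1, PRX1 and CCS1 were above 0 and TSA1, AHP1 and GRX1 below 0 throughout, 6 in all; over all 1891 genes with 3 values the sign was the same for 55.7%.

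Hybridization 3 set several of these genes apart from the rest of their own values. The median of the genes was 0.32 in hybridization 1, 0.64 in hybridization 2 and -0.32 in hybridization 3, while the median of all genes lay between -0.03 and 0.01. TRX2 was lower in hybridization 3 than in the mean of hybridizations 1 and 2 by a difference of -1.21, TSA1 by -1.18 and SOD1 by -0.79. Over the 1891 genes this difference had an SD of 0.68, and 4.49%, 4.92% and 12.7% of them were at or below TRX2, TSA1 and SOD1. TRR1, PRX1 and CCS1 were higher there, by 0.22, 0.24 and 0.22. High and low power scans of one array differed by at most 0.42 for these genes, for SOD1 in hybridization 1. The labels give no difference between the cultures of hybridization 3 and those of the others.

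Coding length moved with the ratios. Across the genes with a length, Spearman's rho between length and log2 ratio was -0.48, -0.24 and -0.23 in hybridizations 1, 2 and 3, as a description over genes that share an array. The 10 genes are short, with coding lengths of 312 (TRX1) to 960 bases (TRR1) and a median of 498, against 1236 for the genes tested. The 1396 tested genes within that span had a median log2 ratio of 0.25, and 23.5% of them were called higher and 5.30% lower. TRX1, CCS1 and PRX1 thus share the direction that prevailed among genes of their length, and AHP1 and TSA1 do not. With each hybridization's trend on length removed, TRX1 was at 1.15, CCS1 at 1.00, TSA1 at -1.20 and AHP1 at -1.42, and all 4 passed (limma adjusted p = 0.00511, 0.00157, 0.000475 and 3.08e-05). GRX1 then passed too, and TRX2 turned to -0.27 without passing. The part that length plays in the uncorrected ratios was not tested further.

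**Figure D3:**
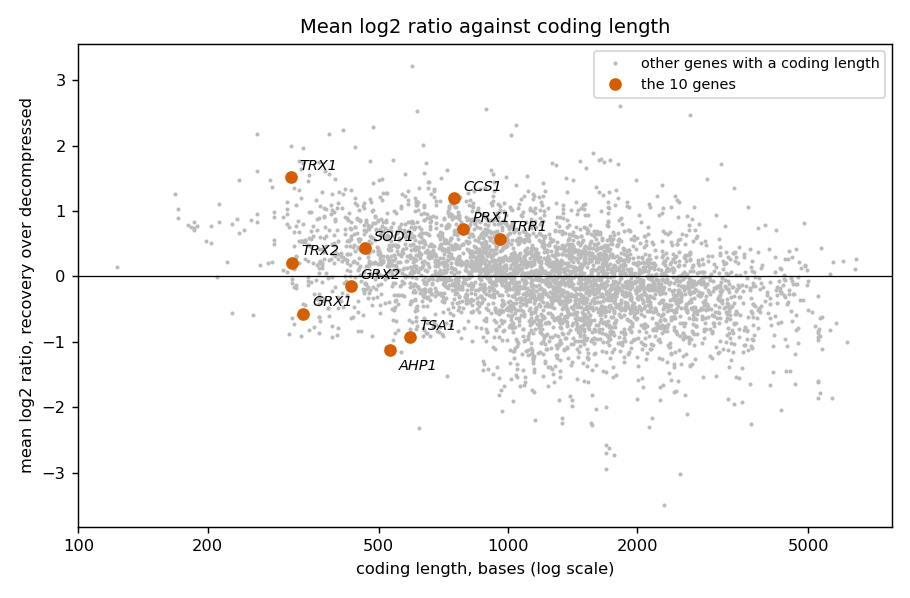
Mean log2 ratio (y axis, recovery over decompressed) against coding length in bases (x axis, log scale) for genes with values in at least 2 hybridizations; the 10 genes are marked in orange. TRX1 and CCS1 lie near the upper edge of the genes of their length, and AHP1 and TSA1 near the lower edge.

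Position on the array, as far as feature numbers stand for it, moved with the ratios as well. Feature numbers fall into 48 runs of 132 features, and the median of a run spanned -0.44 to 0.36 in hybridization 1, -0.77 to 0.64 in hybridization 2 and -0.67 to 1.03 in hybridization 3. CCS1, PRX1 and SOD1 lay in runs with mean medians of 0.47, 0.32 and 0.14. AHP1 and GRX1 lay in runs at -0.28 and -0.32, and TRX1 in one at -0.19. Relative to its run, TRX1 was higher by 1.89 in hybridization 2 and by 1.63 in hybridization 3. AHP1 was below its run in all 3 hybridizations, by a difference of -0.69, -0.54 and -1.30. TRX1, CCS1, TSA1 and AHP1 also passed after position centring, where 28.2% of everything tested was called.

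The wider redox network, 57 genes listed by name with earlier results of these data known, was read from the same fit. Of these 47 could be tested, and 7 rose and 10 fell, beside 13.4% higher and 14.0% lower over everything tested, at a median log2 ratio of -0.04 against -0.01 over all genes tested. The 7 include both CUP1-1 and CUP1-2, which are copies of the same gene. Corrected for coding length, 3 rose and 14 fell of 46 (background 10.2% higher and 11.8% lower). Genes named here with 2 values were measured in hybridizations 1 and 2, except TRX3 and CTT1, measured in 2 and 3, so their p-values too rest mostly on the pooled variance.

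**Figure D4:**
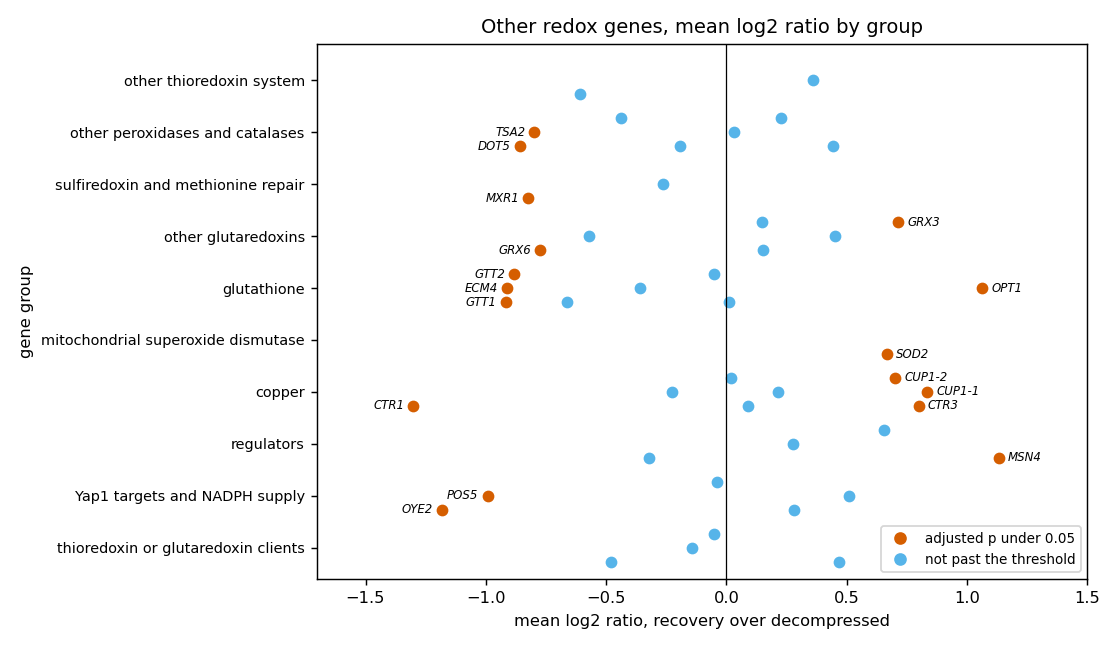
Mean log2 ratios (x axis, recovery over decompressed) of 47 other redox genes by group (y axis); orange points, named, passed the test and blue points did not. Among the called genes, those of glutathione transfer lie near -0.9 and MSN4 and OPT1 above 1.

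The mitochondrial thioredoxin TRX3, at -0.61, and the mitochondrial reductase TRR2, at 0.36, did not pass. TRX3 did pass corrected for coding length, at -0.92, and corrected for length and position, at -0.66. Of 7 other peroxidases and catalases tested TSA2 and DOT5 fell and none rose, where 14.0% of everything tested was lower and 13.4% higher. Among the rest the glutathione peroxidase GPX1 had the lowest value, -0.44, and the cytosolic catalase CTT1 the highest, 0.44. Corrected for coding length GPX1 passed, at -0.81 (adjusted p = 0.0329). MXR1, a methionine sulphoxide reductase that is reduced by thioredoxin, fell. It stood at -0.69, -0.78 and -1.01, a mean of -0.82 ± 0.17 (SD, n = 3, limma adjusted p = 0.00602). The fits without hybridization 1 and without hybridization 2 called 262 of 2004 and 340 of 1933 tested, against 1198 of 4368 with all hybridizations. In them MXR1 was at -0.89 and -0.85 and missed the threshold (adjusted p = 0.0868 and 0.0757). MXR2, its mitochondrial counterpart, was at -0.26 without a call. None of 4 thioredoxin or glutaredoxin clients passed, where 27.4% of everything tested was called. MET16, the reductase of sulphate assimilation, was at -0.48 and RNR2, a subunit of ribonucleotide reductase, at 0.47. Corrected for coding length MET16 passed, at -0.66 (adjusted p = 0.0386).

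Of 6 other glutaredoxins GRX3, which acts in iron regulation, rose to 0.71 and GRX6, a membrane-bound glutaredoxin of the secretory pathway, fell to -0.77 (limma adjusted p = 0.0198 and 0.0419). Over everything tested 13.4% was higher and 14.0% lower. GRX8, at -0.57 without a call, passed when corrected for coding length, at -1.10 (adjusted p = 0.00606). GRX3 missed the threshold without hybridization 1, at 0.66, and without hybridization 2, at 0.57 (adjusted p = 0.228 and 0.236). With low power scans alone, at 0.68, it also missed the threshold (adjusted p = 0.0675). So it did corrected for coding length, at 0.52, and for length and position, at 0.38 (adjusted p = 0.0879 and 0.0831). GRX6 missed it with high and with low power scans alone, at -0.75 and -0.80 (adjusted p = 0.0616 and 0.0798), after median centring, at -0.78 (adjusted p = 0.0536), and in the fit of 5 scans (adjusted p = 0.0729). Of 8 glutathione genes tested 3 fell and 1 rose, where 14.0% of everything tested was lower and 13.4% higher; in the fit of 5 scans 1 fell and 0 rose. The glutathione transferases GTT1 and GTT2 fell to -0.92 and -0.88, and the omega-class transferase ECM4 to -0.91 (limma adjusted p = 0.014, 0.0191 and 0.0148). GTT1 and GTT2 missed the threshold in the fit of 5 scans (adjusted p = 0.0568 and 0.072), GTT1 did so with high power scans alone, at -0.76 (adjusted p = 0.0596), and GTT2 was at -0.43 after position centring (adjusted p = 0.162). OPT1, a glutathione and peptide transporter, rose to 1.06 (limma adjusted p = 0.00379); with low power scans alone its mean of 0.87 did not pass (adjusted p = 0.0669), nor did it in the fit of 5 scans (adjusted p = 0.0606). The enzymes of glutathione synthesis GSH1 and GSH2, at -0.05 and -0.66, the omega-class transferase GTO1, at -0.36, and the glutathione reductase GLR1, at 0.01, did not pass.

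Superoxide dismutase of mitochondria, SOD2, stood at 0.33, 1.11 and 0.56, a mean of 0.67 ± 0.40 (SD, n = 3). It passed narrowly (limma adjusted p = 0.0308) but not in the fit of genes with 3 values (adjusted p = 0.0609) nor without any 1 of the hybridizations (means of 0.83, 0.45 and 0.72; adjusted p = 0.113, 0.354 and 0.0581). SOD2 also missed the threshold with high and with low power scans alone, at 0.61 and 0.73, and in the fit of 5 scans, at 0.67. Corrected for coding length it was at 0.45, and for length and position at 0.37, and neither passed. Of 8 copper genes tested 3 rose and 1 fell, where 13.4% of everything tested was higher and 14.0% lower. Corrected for coding length, 0 of 7 rose and 1 fell. CTR1, the main high-affinity copper transporter, fell, with -0.998 and -1.60 in hybridizations 1 and 2 and a mean of -1.30 (limma adjusted p = 0.00028); it kept its call under all 11 alternatives that could test it. CTR3, a second copper transporter, had values of 1.53 and 0.06 in hybridizations 1 and 2 and rose, with a mean of 0.80 (limma adjusted p = 0.0361). The call was lost in the fit without hybridization 3, which holds the same values but fewer genes (adjusted p = 0.0552). It was also lost after median centring (adjusted p = 0.0515), after the correction for coding length, after position centring and in the fit of 5 scans. The metallothionein genes CUP1-1 and CUP1-2 rose to 0.83 and 0.70 (limma adjusted p = 0.00567 and 0.0227). They are copies of one gene and their features cannot be taken as separate. Without hybridization 1, where they stood at 1.78 and 1.68, they were at 0.36 and 0.21 and did not pass (adjusted p = 0.563 and 0.766). Without hybridization 2 they were at 1.05 and 0.92 and missed it too (adjusted p = 0.0596 and 0.0934). After the correction for coding length they were at 0.15 and 0.02. In the fit of genes with 3 values CUP1-1 passed and CUP1-2 did not (adjusted p = 0.0481 and 0.0959). The copper carrier ATX1 was at 0.21, the copper-sensing activators MAC1 and CUP2 at 0.02 and -0.23 and the metallothionein CRS5 at 0.09, without a call.

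Over everything tested 13.4% was called higher and 14.0% lower. Of the regulators tested, 4 in all, MSN4, a factor of the general stress response, rose. It stood at 0.83, 1.49 and 1.07, a mean of 1.13 ± 0.33 (SD, n = 3, limma adjusted p = 9.72e-05), and passed under every one of its 14 alternatives. YAP1, the peroxide-responsive activator of TRX2, TRR1, TSA1 and AHP1, had values of -0.21, 0.58 and 0.46 and did not pass at 0.28. MSN2, the partner of MSN4, stood at 0.77 and 0.54 with a mean of 0.65 and did not pass (limma adjusted p = 0.0945), but did so at 0.87 corrected for coding length (adjusted p = 0.0226) and at 0.87 centred by position (adjusted p = 0.0138). YBP1, a protein that binds Yap1, was at -0.32 without a call. Of 5 genes of other Yap1 targets and NADPH supply 2 fell, where 14.0% of everything tested was lower. OYE2, an NADPH oxidoreductase, stood at -1.52, -1.18 and -0.85, a mean of -1.18 ± 0.33 (SD, n = 3, limma adjusted p = 4.12e-05), and passed under all 14 alternatives. POS5, the NADH kinase of mitochondria, fell to -0.99 (limma adjusted p = 0.000819), but without hybridization 3 its mean of -0.43 did not pass (adjusted p = 0.254). OYE3, a relative of OYE2, was at 0.51, and the drug transporters FLR1 and ATR1 at 0.28 and -0.04, without a call.

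Profiles over 3 hybridizations were compared among 1823 other named genes, by the root mean square difference of the log2 ratios. CCS1, the highest of the genes with 3 values, was closest to SNL1, COX14 and RPB9, with differences of 0.07, 0.11 and 0.12. AHP1, the lowest, was closest to YLR225C, ADI1 and PHM8, with differences of 0.08, 0.15 and 0.16. Likeness over 3 values is a description of level only.

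**Figure D5:**
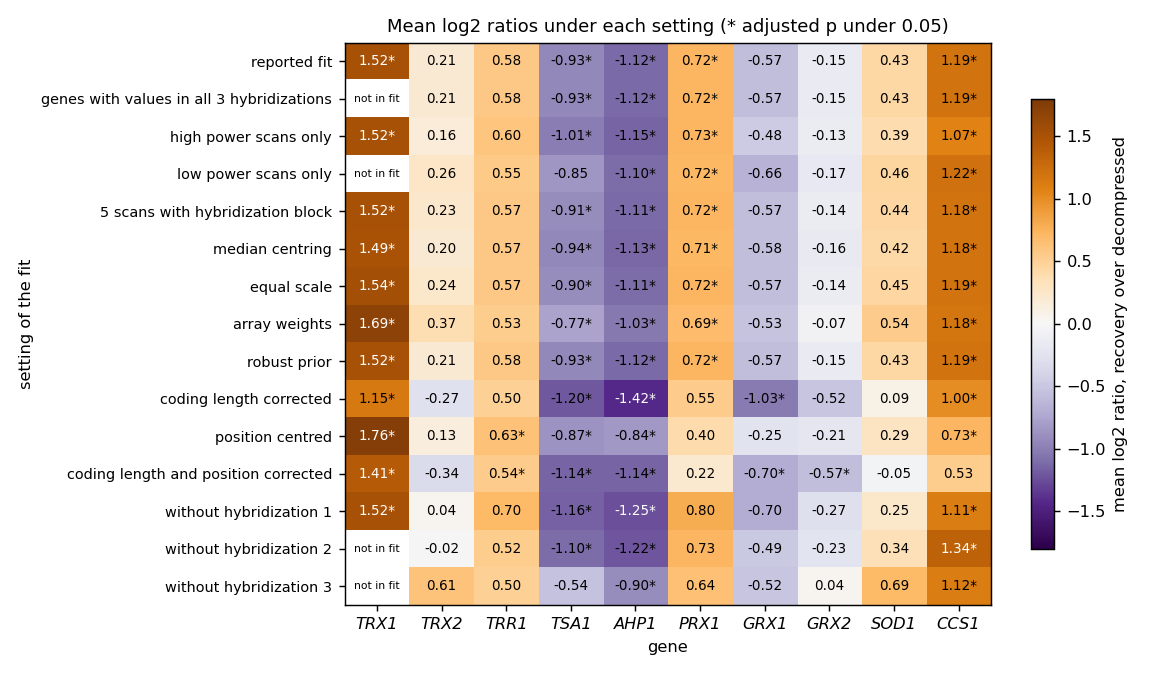
Mean log2 ratio (colour and number, recovery over decompressed) of the 10 genes (x axis) under the reported fit and 14 alternative settings (y axis). An asterisk marks an adjusted p under 0.05, and cells marked "not in fit" are genes that could not enter that fit. AHP1 passed in all fits, TRX1 in each fit that held it, CCS1 in all but one, and TRX2 and SOD1 in none.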

How the data were processed

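The members and gene lists were chosen with earlier results of these data known. The authors deposited log2 ratios, 1 per feature and scan, after LOWESS normalization of spots with a flag of 0, per the labels' protocols; the base was read from the values, whose lowest, -6.64, is the log2 of 0.01. Background correction and scanner software are not given in the sources used here. The platform annotation named 5297 of 6336 features, of which 5293 matched RefSeq R64 by Entrez identifier. The array's genome build is not given, so no coordinates are printed. Both scans of a hybridization were averaged, then features of one gene. limma 3.58.1 (R 4.3.3; lmFit with an intercept, eBayes) tested 4368 genes and unnamed features, 2477 of them with 2 values; the prior had 897.5 degrees of freedom. RefSeq lengths, multiples of 3 for 96.3% of genes, served as coding lengths; their trend was removed by loess (span 0.5). Named redox genes were the called ones with a constant sign, at most 4 a group, or the largest uncalled; other uncalled genes named beside them were added after their values were seen. The fit was tested on 20 simulated sets of 4368 genes, with 200 genes changed. It recovered 7.7%, 61.6%, 96.6% and 100% of genes changed by log2 0.5, 1, 1.5 and 2. Of its calls there, 3.81% were false. These rates belong to the simulated sets. Whether they hold for the measured ratios, which moved with coding length and position, was not tested.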

Additional observations from a re-analysis of the deposited data

How the results depend on the processing

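Each ratio already pairs both RNAs on 1 array, so the test of mean ratios against 0 is a paired one. The series holds a single contrast, and no further pairing was possible. The 1198 calls over all 4368 genes and unnamed features tested became 515 of 1891 with all 3 values required. They became 633 of 3478 with low power scans only and 909 of 4368 in the fit of 5 scans. Without hybridization 1, 2 or 3 they were 262 of 2004, 340 of 1933 and 1052 of 4213. The 5 calls among the 10 genes became 3 with low power scans only and ran from 2 to 4 without 1 hybridization; TRX1 could not enter the low power fit or the fits without hybridization 2 or 3. The 17 calls among 47 tested genes of the wider network became 6 of 21 tested with all 3 values required. They became 5 of 38 with low power scans only and 8 of 47 in the fit of 5 scans. Without hybridization 1, 2 or 3 they were 3 of 23, 3 of 21 and 14 of 45. Of 136 alternative means of the 10 genes 117 kept direction and side of the threshold, 9 lost and 5 gained a call, and 5 turned sign, all of uncalled genes: TRX2 to -0.27 corrected for length, -0.34 for length and position and -0.024 without hybridization 2 (0.61 without hybridization 3), GRX2 to 0.045 without hybridization 3, and SOD1 to -0.052 corrected for both; the cause was not tested. GRX1 and GRX2 were called, at -0.70 and -0.57, after both corrections. TSA1 minus AHP1 turned to -0.031 (position) and -0.00031 (both), and TRR1 minus TRX2 to -0.11 without hybridization 3, against 0.66 without hybridization 1.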

Other observations

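Several genes of the wider redox network had a value in a single hybridization and entered no test. In hybridization 2, the peroxisomal catalase CTA1 stood at 0.42, the sulphiredoxin SRX1, which repairs overoxidized peroxiredoxins, at 0.16, the glutathione degrading enzyme ECM38 at 0.61, the omega-class transferase GTO3 at 0.69, the glucose-6-phosphate dehydrogenase ZWF1 at -0.88 and the Yap family factor CAD1 at -0.02. SKN7, the partner of Yap1 at peroxide-induced genes, stood at 0.17 in hybridization 1.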
